A study of Mus musculus with 24 samples.

Results

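Trametinib, an inhibitor of the kinases MEK1 and MEK2, was added to cisplatin and pemetrexed in LLC1 cells for 24 h, and the cells that received all 3 drugs were set against cells that received the chemotherapy alone. LLC1 is an established mouse line that originated in a Lewis lung carcinoma. Of the 24 RNA sequencing libraries of the series, 6 make up this comparison, chosen by their labelled treatment and time. The 3 libraries of the combination (T24_TCP) came from cells given cisplatin at 2.5 µM, pemetrexed at 2.5 µM and trametinib at 10 nM. The 3 libraries of chemotherapy (T24_CP) came from cells given the same doses of cisplatin and pemetrexed without trametinib. A further 6 libraries at 24 h came from cells given trametinib alone at 10 nM (T24_T) or only the 0.1% DMSO vehicle (T24_NT), and 6 at 6 h came from cells given the combination (T6_TCP) or chemotherapy (T6_CP). They were used to ask whether the difference made by trametinib was another one without chemotherapy or at the earlier time. All cells were of 1 line grown alone, with no host tissue or immune cells. The labels do not say whether the libraries of a group came from separate cultures, and the p-values therefore cover only how far these libraries differ, possibly for technical reasons.

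MEK phosphorylates and activates ERK, and active ERK drives transcription of immediate early genes, of growth factor ligands and of feedback inhibitors that restrain the pathway. Cisplatin crosslinks DNA, and pemetrexed blocks enzymes that use folate to make nucleotides, so that both act on DNA synthesis and its damage response. The series title names the chemokine CXCL10, which binds the receptor CXCR3 on activated T cells and NK cells and is known as a target of interferon and NF-kB signalling.

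Expression was measured as TPM, the share of a transcript among all transcripts of its library scaled to a fixed total, which leaves its read depth unknown. In the 6 libraries 11640 to 11851 genes were at 1 TPM or more. On the log2 scale libraries of the same group correlated at 0.982 to 0.992. Vim, the mesenchymal intermediate filament, stood at 3894 to 4260 TPM in the combination libraries and 3296 to 3627 TPM in the chemotherapy libraries, and the epithelial genes Epcam and Cdh1 were below 0.2 TPM in every one. The epithelial keratin genes were abundant, Krt8 at 176 to 209 TPM with the combination and 125 to 146 TPM with chemotherapy, and Krt18 at 177 to 193 TPM with the combination and 321 to 361 TPM with chemotherapy. No lung epithelium marker out of 5 reached 1 TPM. Of the leukocyte markers, Adgre1, C1qa, Cd3e and Ncr1 were at 0 in all 6 libraries, although Cd68, a lysosomal protein used as a macrophage marker, stood at 13.0 to 14.6 TPM with the combination and 33.0 to 39.3 TPM with chemotherapy. Lyz2, another macrophage marker, lay the other way, at 3.34 to 3.97 TPM with the combination and 1.84 to 2.12 TPM with chemotherapy. TPM of a bulk sample cannot tell fewer cells of a state from less RNA in each cell.

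In what follows a difference is in log2(TPM + 1), combination minus chemotherapy, with its standard error from limma (n = 3 libraries a group). Genes are said to rise or fall, or to be higher or lower, where the p-value adjusted over all 12581 genes tested was under 0.05. By that rule 3810 genes (30.3%) were higher with the combination and 2921 genes (23.2%) were lower. The difference reached 1, a doubling of TPM + 1, in 404 of the higher genes, and a fall of the same size was found in 223 of the lower ones. The median difference over all genes tested was 0.03. The 6731 genes called make up 53.5% of those tested. Each count of list members in this comparison is to be read against the shares of 30.3% and 23.2%. In 7624 genes (60.6%) the libraries of the 2 groups did not overlap, so a lack of overlap was common.

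Genes driven by ERK fell together. Of 27 tested genes of an ERK output list, 23 fell and 1 rose, with a median difference of -0.99. Dusp6, a phosphatase that removes the activating phosphates from ERK and is read as a marker of pathway activity, stood at 44.7, 40.8 and 51.6 TPM with the combination, against 126, 115 and 121 TPM with chemotherapy. The 2 groups of Dusp6 values lay far apart, with a difference of -1.39 ± 0.14 (adjusted p = 9.26e-08). Egr1, an immediate early transcription factor, had the largest fall of any named gene, at 1.04, 1.05 and 1.54 TPM with the combination and 25.8, 23.8 and 22.9 TPM with chemotherapy (-3.52 ± 0.10, adjusted p = 1.49e-15). Etv4, an ETS transcription factor, was at 17.4, 12.4 and 24.1 TPM with the combination, against 103, 104 and 111 TPM with chemotherapy (-2.54 ± 0.19). Spry4, a feedback inhibitor of receptor signalling, was at 9.73, 8.60 and 12.9 TPM with the combination, against 46.9, 46.8 and 47.4 TPM with chemotherapy (-2.09 ± 0.17). The EGF receptor ligands fell as well. Areg, which encodes amphiregulin, was at 23, 18.4 and 24.1 TPM with the combination and 107, 117 and 98.7 TPM with chemotherapy. Ereg, which encodes epiregulin, was at 15.8, 15.6 and 18.2 TPM with the combination and 41.6, 44.3 and 40.9 TPM with chemotherapy. The member that rose was Spry1, another Sprouty inhibitor (0.60).

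Cxcl10 rose. The gene (ENSMUSG00000034855.13, chromosome 5, 92346638 to 92348889, minus strand, GRCm38) stood at 10.7, 13.0 and 9.82 TPM in the 3 combination libraries and at 3.05, 3.06 and 2.42 TPM in the 3 chemotherapy libraries. The lowest combination library thus exceeded the highest chemotherapy library, and the difference was 1.66 ± 0.12 (adjusted p = 6.17e-10). Leaving out any 1 of the 6 libraries gave 1.56 to 1.74. In the 250 bases before the Cxcl10 start annotated by RefSeq (chr5:92348890-92349139, minus strand, GRCm38.p6) 2 motifs of the factors named above were found. The capitals below mark a core of the interferon response element (ISRE, searched as GAAANNGAA), which begins 213 bases upstream, and a core NF-kB site (searched as GGANTTTCC, here on the opposite strand), which begins 158 bases upstream.
Cxcl10: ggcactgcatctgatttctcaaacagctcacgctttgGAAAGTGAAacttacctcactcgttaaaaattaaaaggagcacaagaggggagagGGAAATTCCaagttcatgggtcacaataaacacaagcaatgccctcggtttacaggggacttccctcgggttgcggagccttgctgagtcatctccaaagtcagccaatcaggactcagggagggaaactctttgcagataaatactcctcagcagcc
Both strands were searched in the promoters of 9150 of the 12574 gene symbols tested, of which 5.9% held the ISRE core and 1.06% held the NF-kB core. The Cxcl10 promoter also held the AP-1 motif (TGANTCA), which was in 4.28% of all promoters and is not marked above. A match is a string of letters and no evidence of binding.

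Most of the other chemokine genes rose too. Of 14 tested, 10 were higher and 2 lower, with a median difference of 0.98. With a filter at a mean of 5 TPM, which leaves fewer members, 3 were higher and 1 lower. The largest rise was that of Cxcl5, a ligand of the neutrophil receptor CXCR2, at 31.9, 34.3 and 33.2 TPM with the combination and 4.04, 4.02 and 2.72 TPM with chemotherapy (2.91 ± 0.12, adjusted p = 5.23e-13). Cxcl1, another CXCR2 ligand, was at 37.1, 42.9 and 48.6 TPM with the combination, against 21.5, 21.6 and 19.2 TPM with chemotherapy (1.01 ± 0.12). Cxcl3 was at 4.68, 5.36 and 5.87 TPM with the combination and 0.877, 0.931 and 0.527 TPM with chemotherapy. In each of these 3 genes no library of one group reached the range of the other, as in 60.6% of all genes tested. Cxcl2, Cxcl12 and Cxcl15 were under 0.5 TPM in every chemotherapy library and rose, with means of 1.51, 1.47 and 3.98 TPM in the combination libraries. Cxcl2 reached 1 TPM in no library outside T24_TCP, and Cxcl12 and Cxcl15 in none outside T24_TCP and T24_T. They thus entered the test only through groups given trametinib, so their rise was tied to the filter. The same holds for Cxcl3, which averaged 0.778 TPM or less in every group without trametinib. The 2 chemokines that fell were Cxcl16 (-0.86) and Cx3cl1 (-0.68), both made as membrane-bound proteins. Ccl2, which draws monocytes, was the most abundant of the list and showed a difference of -0.05 that did not pass the test. Cxcl9 and Cxcl11, the other CXCR3 ligands, averaged 0.126 and 0.0213 TPM over the 24 libraries and were too low to be tested. Of the 10 chemokine promoters matched, 4 held the NF-kB core, those of Cxcl1, Cxcl2, Cxcl3 and Cxcl10. Over all genes the core was in 1.24% of the promoters of higher genes and 1.5% of those of lower genes. It was in 2 of the 12 matched promoters of NF-kB targets and feedback genes. The site of Cxcl1 (chr5:90891155-90891203, plus strand) began 70 bases upstream and is printed with its surroundings, the core in capitals.
Cxcl1: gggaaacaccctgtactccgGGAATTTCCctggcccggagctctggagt

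**Figure D1:**
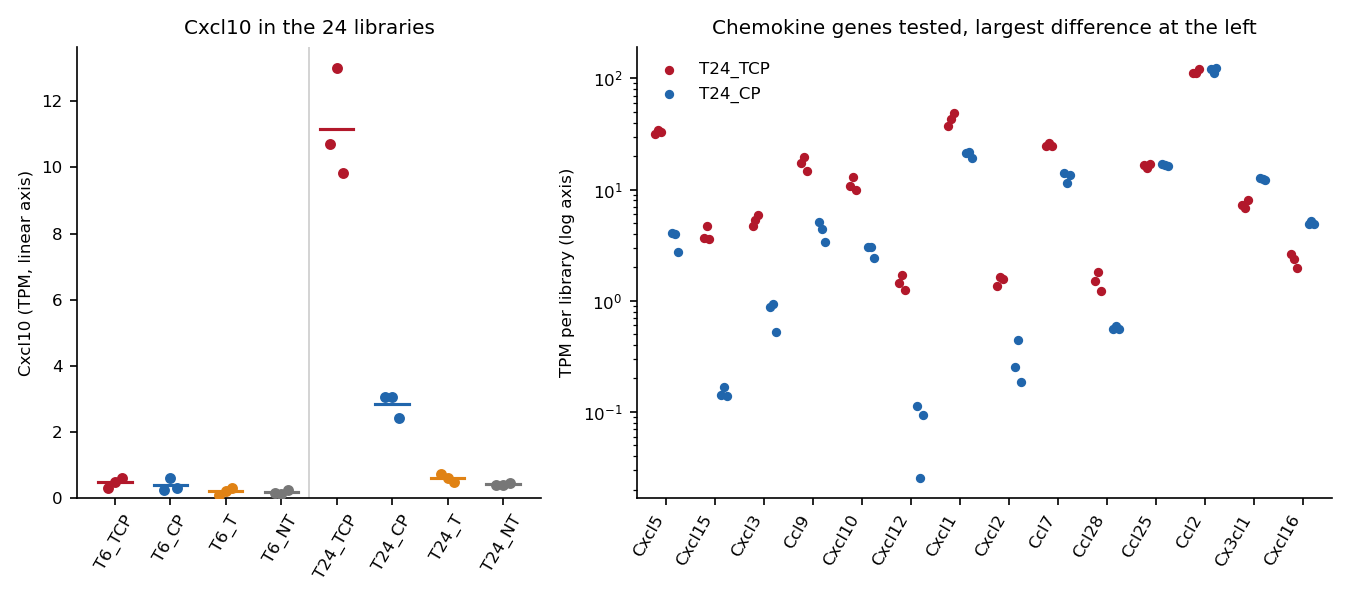
Left, Cxcl10 in TPM on a linear axis in each of the 24 libraries, with a bar at the mean of each group of 3. Right, the 14 chemokine genes tested, in TPM on a log axis, with 1 point per library and the combination to the left of chemotherapy. The 3 T24_TCP libraries of Cxcl10 lie between 9.82 and 13.0 TPM, above the 2.42 to 3.06 TPM of T24_CP, and 10 of the 14 genes were higher with the combination.

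Interferon-stimulated genes were mostly higher, by less than Cxcl10. Of 27 tested, 22 rose and 2 fell, with a median difference of 0.40. Parp9, an ADP-ribosyltransferase, was at 14.2, 14.9 and 12.4 TPM with the combination and 5.54, 5.87 and 5.49 TPM with chemotherapy (1.16 ± 0.09, adjusted p = 2.88e-09). Isg15, the interferon-induced ubiquitin-like protein, was at 8.98, 8.50 and 7.88 TPM with the combination, against 4.61, 4.69 and 4.60 TPM with chemotherapy (0.75 ± 0.18, adjusted p = 0.00138). Ifit2, another member of the list, was at 19.1, 19.8 and 19.9 TPM with the combination, against 14.5, 14.6 and 13.7 TPM with chemotherapy (0.43 ± 0.07). The most abundant member went the other way. Ifitm3, which blocks virus entry, was at 639, 585 and 615 TPM with the combination and 1072, 1108 and 1156 TPM with chemotherapy (-0.86 ± 0.06, adjusted p = 1.13e-09), so that the summed TPM of the list was lower, at 1004 to 1040 with the combination and 1365 to 1444 with chemotherapy. Several classical members, such as Ifit1, Rsad2 and Mx1, averaged under 0.5 TPM and were not tested, 13 of the 40 listed in all. The interferon gene Ifnb1 averaged 0.031 TPM over the 24 libraries and was not tested.

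Signalling genes of the same pathway moved less evenly, with 11 of 22 IRF and STAT genes higher and 2 lower (median 0.20). Irf1, a transcription factor induced by interferon gamma and NF-kB, was at 45.9, 46.9 and 41.8 TPM with the combination and 25.0, 26.4 and 25.9 TPM with chemotherapy (0.78 ± 0.06, adjusted p = 3.67e-09). Jak1, the kinase of the interferon receptors, was at 163, 173 and 156 TPM with the combination and 80.4, 86.6 and 80.0 TPM with chemotherapy (0.98 ± 0.07). Irf5 fell (-1.05 ± 0.16). The ISRE core was in 8 of the 22 promoters of interferon-stimulated genes that were matched (36.4%), against 5.9% of all promoters. Of the genes described here, Isg15 held 3 overlapping copies, the first of them 78 bases upstream (chr4:156200868-156200916, minus strand). Stat2, which rose by 0.66, held 1 copy on the opposite strand 221 bases upstream (chr10:128270257-128270305, plus strand). B2m, the light chain of MHC class I, held 1 copy 139 bases upstream (chr2:122147528-122147576, plus strand). The 3 stretches are printed from RefSeq in GRCm38.p6, with the core in capitals.
Isg15: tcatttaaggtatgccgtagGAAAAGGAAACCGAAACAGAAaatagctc
Stat2: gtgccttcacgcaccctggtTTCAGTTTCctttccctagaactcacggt
B2m: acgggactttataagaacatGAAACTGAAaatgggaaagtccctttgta

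Genes that load peptides on MHC class I rose in part, with 12 of 21 higher and 2 lower (median 0.24). Erap1, the peptidase that trims peptides in the endoplasmic reticulum, was at 10.2, 10.3 and 10.2 TPM with the combination and 5.01, 5.05 and 4.83 TPM with chemotherapy (0.91 ± 0.09, adjusted p = 7.54e-08). Psme2, an activator subunit of the proteasome, was at 394, 361 and 359 TPM with the combination, against 189, 228 and 200 TPM with chemotherapy (0.85 ± 0.09). Tap1 (-0.61), a subunit of the peptide transporter, and Nlrc5 (-0.38), the activator of class I genes, fell. Tap2, the other subunit of the transporter, rose (0.53 ± 0.12). The class I chains themselves differed by less. B2m was at 726, 716 and 717 TPM with the combination and 626, 668 and 644 TPM with chemotherapy (0.16 ± 0.04, adjusted p = 0.00222), a call that was lost after rescaling the libraries by the median ratio (adjusted p = 0.0963). H2-K1 rose by 0.37 ± 0.11 (adjusted p = 0.0089), and the difference of H2-D1 was 0.10 ± 0.05 (adjusted p = 0.0947). H2 genes are close copies of each other, so the division of reads among them is uncertain. Of 14 tested genes of nucleic acid sensing, 5 rose and 4 fell (median -0.08). Tmem173, which encodes STING, was among the lower, at 53.4, 50 and 52.8 TPM with the combination and 71.3, 73.4 and 77.8 TPM with chemotherapy (-0.50 ± 0.05). Ddx58, which encodes the RNA sensor RIG-I, rose (0.62 ± 0.11), as did Tbk1, the kinase downstream of both (0.42 ± 0.07).

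Among NF-kB targets and feedback genes, 10 of 17 rose and 2 fell (median 0.32). Vcam1, an adhesion molecule for leukocytes, was at 132, 128 and 127 TPM with the combination and 57.4, 63.2 and 56.9 TPM with chemotherapy (1.11 ± 0.06, adjusted p = 4.68e-11). Tnfaip3, which encodes the inhibitor A20, was at 6.22, 6.27 and 6.71 TPM with the combination, against 2.73, 2.97 and 2.80 TPM with chemotherapy (0.95 ± 0.07). Nfkbia, the inhibitor that holds NF-kB in the cytoplasm, was at 65.8, 70.6 and 71.5 TPM with the combination and 54.2, 44.7 and 52.7 TPM with chemotherapy (0.45 ± 0.08). Tnfaip2 (-0.85) and Sod2 (-0.39) fell.

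Surface ligands read by T cells and NK cells were lower more often than higher, with 8 of 13 lower and 2 higher (median -0.29). Cd80, a ligand of CD28 and CTLA-4, was at 3.60, 2.99 and 3.47 TPM with the combination and 10.8, 12.2 and 10.4 TPM with chemotherapy (-1.48 ± 0.09, adjusted p = 5.15e-11). Pvr, the ligand of DNAM-1 and TIGIT, was at 25.2, 24.1 and 24.6 TPM with the combination, against 42.2, 42.8 and 40.4 TPM with chemotherapy (-0.74 ± 0.06). Tnfsf9, the ligand of 4-1BB, fell by 1.12 ± 0.09, and the death receptor gene Fas fell by 0.88 ± 0.13. The 2 members that rose were Lgals9, which encodes galectin-9 (0.74 ± 0.05), and Vsir, which encodes VISTA (0.95 ± 0.16). Cd274, which encodes PD-L1, was at 3.31, 3.68 and 3.37 TPM with the combination and 3.73, 4.72 and 4.12 TPM with chemotherapy. Its difference of -0.22 ± 0.09 passed the test narrowly (adjusted p = 0.0432). The call was lost in 9 settings besides the Bonferroni threshold. Among them were a pseudocount of 0.1 (adjusted p = 0.0751), a replicate block (adjusted p = 0.0578) and a fit of the 6 libraries alone (adjusted p = 0.0868). Without the second chemotherapy library the difference was -0.14 (adjusted p = 0.208).

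Ogn, a gene of the extracellular matrix, had the largest rise of the named genes. Of the 12 genes with the largest rise, 5 encode matrix proteins or proteoglycans, Ogn, Omd, Tgfbi, Thbs1 and Dpt. Omd averaged 0.73 TPM or less in every group without trametinib. It thus entered the test only through groups given trametinib, so its rise was tied to the filter. Ogn, the small leucine-rich proteoglycan osteoglycin, was at 52.9, 62.9 and 46.7 TPM with the combination and 1.61, 1.63 and 1.37 TPM with chemotherapy (4.43 ± 0.10, adjusted p = 3.34e-16). Tgfbi, which joins collagens to integrins, was at 108, 124 and 92.1 TPM with the combination, against 6.76, 7.87 and 6.88 TPM with chemotherapy (3.73 ± 0.12). Thbs1, which encodes thrombospondin-1, was at 34.2, 38.7 and 36.7 TPM with the combination, against 2.86, 2.34 and 2.54 TPM with chemotherapy (3.39 ± 0.10). The collagen and matrix list as a whole had 27 of 33 tested members higher and 3 lower, with a median difference of 1.21, the highest of the 29 lists examined. Fibrillar collagen genes were low with chemotherapy. Col1a1 stood at 3.95, 6.89 and 5.92 TPM with the combination and 0.396, 0.0789 and 0.580 TPM with chemotherapy (2.28 ± 0.19). Fn1, which encodes fibronectin, was abundant in both groups, at 609, 616 and 573 TPM with the combination and 265, 254 and 256 TPM with chemotherapy (1.21 ± 0.07, adjusted p = 2.08e-11). Dcn, the proteoglycan decorin, rose by 2.71 ± 0.12. The members that fell were Col18a1 (-0.92), Lamb1 (-0.36) and Fbln1 (-0.28).

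Contractile genes of smooth muscle rose with them in 15 of 19 tested members, and 1 fell (median 0.37). Acta2, smooth muscle actin, was at 25.3, 29.1 and 20.6 TPM with the combination and 3.01, 3.29 and 3.18 TPM with chemotherapy (2.63 ± 0.10, adjusted p = 1.11e-13). Myl9, a myosin light chain, was at 7.43, 9.82 and 6.96 TPM with the combination, against 0.521, 0.622 and 1.02 TPM with chemotherapy (2.40 ± 0.26). Tagln, which encodes transgelin, was under 2 TPM in all 6 libraries and rose by 0.50 ± 0.09. The member that fell was Des, which encodes desmin, at 4.96, 5.63 and 5.18 TPM with the combination and 12.6, 13.0 and 13.8 TPM with chemotherapy. Matrix proteases and their inhibitors went mostly the other way, with 4 of 18 higher and 9 lower (median -0.39). Mmp3, the stromelysin, was at 49.7, 45.8 and 53.5 TPM with the combination, against 144, 163 and 141 TPM with chemotherapy (-1.57 ± 0.09, adjusted p = 1.95e-11). Timp1, an inhibitor of metalloproteinases, fell by 0.65 ± 0.06. Adamts1 rose by 2.15 ± 0.11 and the membrane protease Mmp14 by 0.82 ± 0.06.

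The other genes of the 12 largest rises were not of 1 kind. Cp, the copper ferroxidase ceruloplasmin, was at 128, 122 and 119 TPM with the combination and 10.3, 11.5 and 12.1 TPM with chemotherapy (3.33 ± 0.12). Ptn, the growth factor pleiotrophin, was at 54.0, 65.6 and 58.0 TPM with the combination, against 6.72, 6.4 and 6.46 TPM with chemotherapy (3.0 ± 0.10). Cbr2, a carbonyl reductase, was at 49.4, 67.6 and 49.9 TPM with the combination, against 4.81, 5.35 and 4.58 TPM with chemotherapy (3.25 ± 0.20). Elmo1, an adaptor that activates the GTPase Rac with a DOCK protein, and P2ry14, a receptor for UDP-sugars, were under 0.4 TPM in every chemotherapy library and rose, with means of 10.8 and 8.89 TPM in the combination libraries. Ighm, the constant region of the immunoglobulin mu heavy chain, was at 9.51, 9.71 and 7.11 TPM with the combination and 0.117, 0.194 and 0.320 TPM with chemotherapy (3.01 ± 0.12). In every group without trametinib P2ry14 averaged 0.292 TPM or less and Ighm 0.21 TPM or less. Both genes thus entered the test only through groups given trametinib, so their rise was tied to the filter. None of the 3 B cell markers reached 1 TPM, and their sum was 0.557 to 0.883 TPM with the combination and 0.464 to 0.543 TPM with chemotherapy.

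Beside Egr1, Etv4 and the Wnt ligand gene Wnt7b (-2.52 ± 0.14), the 12 largest falls held the 2 selectin genes of endothelium. Sele, which encodes E-selectin, was at 0.498, 0.387 and 0.647 TPM with the combination and 12.0, 11.8 and 10.6 TPM with chemotherapy (-3.05 ± 0.08, adjusted p = 4.98e-16). Selp, which encodes P-selectin, was at 0.168, 0.204 and 0.406 TPM with the combination, against 5.60, 6.16 and 5.36 TPM with chemotherapy. In every group given trametinib Sele averaged 0.511 TPM or less and Selp 0.439 TPM or less. Both selectin genes thus entered the test only through groups without trametinib, so their fall was tied to the filter. Of 4 endothelial markers, Cdh5 and Tek were below 0.1 TPM in all 6 libraries, Pecam1 was at 5.19 to 6.83 TPM with the combination and 6.96 to 12.7 TPM with chemotherapy, and Vwf was at 2.23 to 2.63 TPM with the combination and 1.44 to 2.14 TPM with chemotherapy. The sum of the 4 was 7.42 to 9.28 TPM with the combination and 8.95 to 14.9 TPM with chemotherapy. Their part in the selectin result was not tested. Atg9b, a paralogue of the autophagy protein ATG9A, was at 3.91, 3.47 and 3.93 TPM with the combination and 30.3, 28.4 and 30.1 TPM with chemotherapy (-2.68 ± 0.08). Slc4a11, a membrane transporter, was at 4.44, 3.66 and 4.92 TPM with the combination, against 31.4, 31.3 and 32.3 TPM with chemotherapy (-2.62 ± 0.10). Calb1, the calcium-binding protein calbindin, varied within both groups, at 4.93, 6.92 and 21.7 TPM with the combination and 178, 30.3 and 205 TPM with chemotherapy. Its difference of -3.36 ± 0.69 (adjusted p = 0.000414) thus came with the widest spread of the 24 genes.

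**Figure D2:**
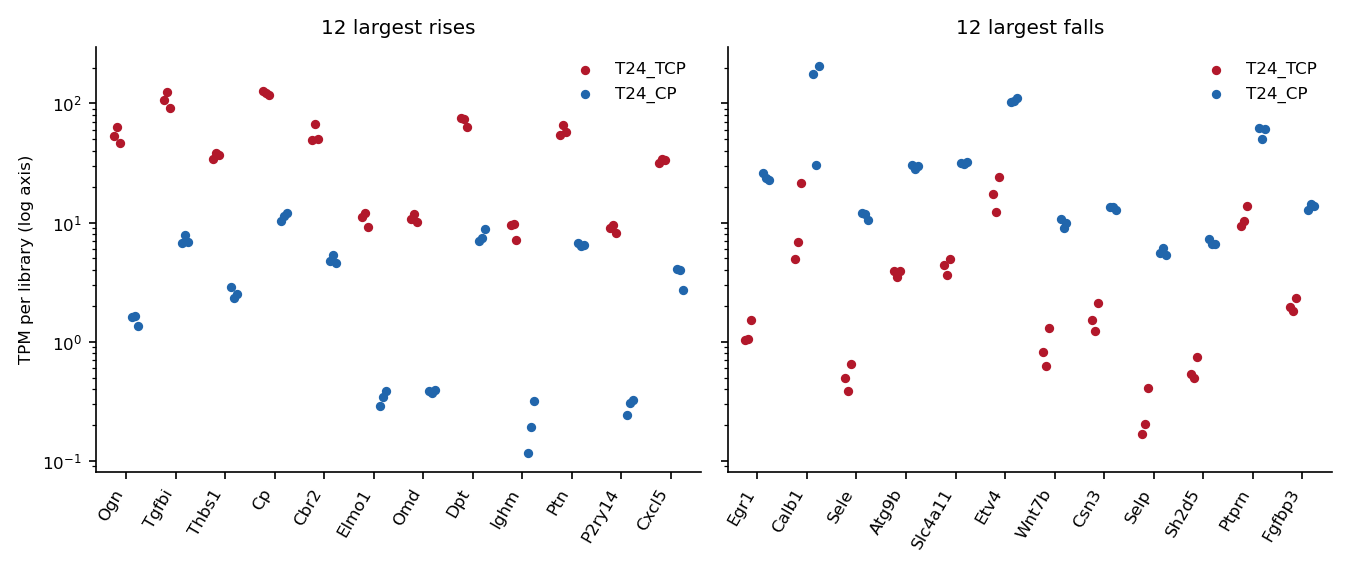
TPM on a log axis for the 12 genes with the largest rise (left) and the 12 with the largest fall (right), with 1 point per library and T24_TCP to the left of T24_CP. The groups do not overlap, which the choice of the genes required. Calb1 has the widest spread, with a chemotherapy library at 30.3 TPM beside 2 at 178 and 205 TPM.

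Genes of G2 and mitosis rose as a group. Of 38 tested, 32 were higher and 1 lower, with a median difference of 0.42. Ccnb2, a B-type cyclin that activates CDK1, was at 126, 128 and 122 TPM with the combination and 69.6, 69.0 and 66.3 TPM with chemotherapy (0.87 ± 0.05, adjusted p = 3.22e-11). Nusap1, a spindle protein, was at 91.5, 86.6 and 77.0 TPM with the combination, against 33.6, 35.5 and 32.8 TPM with chemotherapy (1.30 ± 0.08). Top2a, the topoisomerase that untangles chromosomes, was at 490, 497 and 447 TPM with the combination, against 252, 292 and 252 TPM with chemotherapy (0.85 ± 0.07). Ccnb1 rose by 0.57 ± 0.06, Aurka by 0.79 ± 0.06 and Prc1, which bundles spindle microtubules, by 1.03 ± 0.06. Mad2l1, a spindle checkpoint protein, was the member that fell (-0.32). The cell cycle homology region, searched as TTTGAA, was in 9 of the 31 mitotic promoters matched (29%), against 10.4% of all promoters. It was not particular to this list, being in 8 of the 22 matched promoters of interferon-stimulated genes (36.4%).

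Genes of DNA replication moved less, with 13 of 35 higher and 5 lower and a median of 0.05. The first 3 of that list did not pass the test, with differences of -0.05 for Mcm2, -0.02 for Pcna and -0.03 for Cdc6, and the groups overlapped in each. Mcm5 (0.40 ± 0.05) and Mcm6 (0.38 ± 0.06), subunits of the replicative helicase, rose, as did the replication ligase gene Lig1 (0.48 ± 0.08). Of 21 cyclins of the D and E types, their kinases, inhibitors and E2F partners, 8 fell and 4 rose (median -0.14). Ccne1, which encodes cyclin E1, was at 21.4, 20.1 and 22.7 TPM with the combination and 44.7, 44.6 and 43.0 TPM with chemotherapy (-1.01 ± 0.08, adjusted p = 3e-09). Ccne2 was at 78.9, 65.0 and 82.9 TPM with the combination, against 162, 129 and 179 TPM with chemotherapy (-1.03 ± 0.12). The inhibitors Cdkn1b, which encodes p27 (0.51 ± 0.06), and Cdkn2c, which encodes p18 (0.48 ± 0.06), rose, and so did Cdk4 (0.32 ± 0.04). Ccnd1, which encodes cyclin D1 and was placed in the ERK list, fell to a mean of 97.5 TPM with the combination, against 214 TPM with chemotherapy.

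Targets of p53 were lower more often than higher, with 14 of 28 lower and 4 higher (median -0.22). After rescaling by the median ratio 22 were lower and 3 higher. Mdm2, the ubiquitin ligase that degrades p53, was at 203, 188 and 211 TPM with the combination and 519, 507 and 471 TPM with chemotherapy (-1.31 ± 0.09, adjusted p = 3.75e-10). Pmaip1, which encodes the death-promoting BH3 protein NOXA, was at 31.6, 28.6 and 36.1 TPM with the combination, against 79.4, 83.9 and 74.3 TPM with chemotherapy (-1.28 ± 0.10). Cdkn1a, which encodes the CDK inhibitor p21, was at 272, 239 and 260 TPM with the combination, against 393, 331 and 391 TPM with chemotherapy (-0.53 ± 0.12). Among those that rose were Sesn1 (0.70 ± 0.07) and Ephx1 (0.82 ± 0.07). Of 32 genes of crosslink and excision repair, 11 rose and 3 fell (median 0.01). Rev3l, the catalytic subunit of the translesion polymerase zeta, was at 66.1, 62.8 and 62.4 TPM with the combination and 30.6, 39.3 and 37.9 TPM with chemotherapy (0.82 ± 0.07, adjusted p = 1.54e-08). Ercc1, a subunit of the nuclease that cuts platinum adducts, fell by 0.44 ± 0.10, and the Fanconi gene Fancd2 did not pass the test (-0.07 ± 0.07, adjusted p = 0.44). In the BCL2 family 2 of 12 members rose and 1 fell, and the number that fell was 0 without the third T24_CP or the first or second T24_TCP library and 2 after rescaling or without the second T24_CP library. Bmf, a BH3 protein, was at 9.98, 11.1 and 7.22 TPM with the combination and 1.18, 1.15 and 1.52 TPM with chemotherapy (adjusted p = 4.2e-09), whereas Bcl2l11, which encodes BIM, and Mcl1 overlapped between the groups.

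Targets of ATF4, the transcription factor of the amino acid response, fell together. Of 41 tested, 36 fell and 2 rose, with a median difference of -0.96. Asns, the asparagine synthetase gene, was at 45.2, 44.1 and 50.4 TPM with the combination and 214, 227 and 221 TPM with chemotherapy (-2.22 ± 0.05, adjusted p = 3.34e-16). Psph, of serine synthesis, was at 22.4, 27.1 and 24.1 TPM with the combination, against 85.4, 111 and 99.4 TPM with chemotherapy (-1.96 ± 0.09). Cth, which makes cysteine, was at 8.07, 7.52 and 9.54 TPM with the combination, against 42.6, 42.2 and 41.7 TPM with chemotherapy (-2.21 ± 0.10). The transfer RNA ligase genes Cars (-1.25 ± 0.05) and Gars (-1.11 ± 0.06) fell too. The mRNA of Atf4 itself was at 259, 254 and 255 TPM with the combination and 380, 407 and 376 TPM with chemotherapy (-0.60 ± 0.06). The 2 members that rose were the stress factors Atf3 (0.49) and Cebpg (0.45). The composite site of ATF4 and CEBP factors, searched as TGATGNAA, was in 10 of 32 matched promoters of the list (31.2%), against 1.79% of all promoters. It is shown in capitals for Asns, the member with the smallest p (23 bases upstream, chr6:7693210-7693252, minus strand), and for Atf3, which rose (110 bases upstream on the opposite strand, chr1:191183416-191183463, minus strand).
Asns: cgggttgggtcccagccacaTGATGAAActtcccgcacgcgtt
Atf3: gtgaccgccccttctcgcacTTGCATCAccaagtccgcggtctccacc

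Genes of folate use and nucleotide synthesis, the pathway that pemetrexed inhibits, were mostly lower, with 22 of 34 lower and 2 higher (median -0.41). Shmt2 and Mthfd2, the mitochondrial enzymes that make one-carbon units from serine, were the strongest of those described. Shmt2 was at 55.5, 69.1 and 88.7 TPM with the combination and 230, 194 and 213 TPM with chemotherapy (-1.59 ± 0.13, adjusted p = 5.54e-09). Mthfd2 was at 78.3, 71.2 and 69.5 TPM with the combination, against 185, 195 and 197 TPM with chemotherapy (-1.39 ± 0.06, adjusted p = 1.81e-12). Of the enzymes known as pemetrexed targets, Gart was at 73.1, 70.7 and 77.9 TPM with the combination and 134, 127 and 126 TPM with chemotherapy (-0.79 ± 0.07). Tyms overlapped between the groups, at 72.9, 72.1 and 79.7 TPM with the combination and 80.2, 79.0 and 76.9 TPM with chemotherapy (-0.07 ± 0.07, adjusted p = 0.421). Ribosome biogenesis genes fell in 30 of 35 tested members and rose in none, with a median of -0.53. Polr1e, a subunit of RNA polymerase I, was at 23.2, 22.3 and 25.9 TPM with the combination and 47.9, 60.1 and 52.3 TPM with chemotherapy (-1.13 ± 0.10). Nop16 (-0.86 ± 0.06) and Nolc1 (-0.80 ± 0.07), nucleolar factors, fell further than the abundant nucleolar genes Ncl (-0.45 ± 0.06) and Nop56 (-0.26 ± 0.06).

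Genes of cholesterol synthesis and uptake rose almost without exception. Of 25 tested, 24 rose and none fell, with a median difference of 0.80. Hmgcs1, which makes the precursor HMG-CoA, was at 72.0, 80.2 and 71.4 TPM with the combination and 30.1, 31.5 and 29.6 TPM with chemotherapy (1.27 ± 0.08, adjusted p = 6.71e-11). Sqle, a rate-limiting oxygenase, was at 34.2, 33.3 and 33.0 TPM with the combination, against 13.0, 14.3 and 12.6 TPM with chemotherapy (1.27 ± 0.06). A site of the sterol-responsive factor SREBP, searched as TCACNCCAC, was in 0.874% of all promoters and in 1 of 18 matched promoters of the list, that of Hmgcs1, 137 bases upstream (chr13:119690194-119690242, plus strand), where the capitals mark it.
Hmgcs1: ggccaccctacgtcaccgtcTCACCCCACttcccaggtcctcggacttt

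Glycolysis and hypoxia genes rose in 21 of 32 members and fell in 5 (median 0.32). Adm, which encodes the vasodilator adrenomedullin, was at 27.4, 26.2 and 23.5 TPM with the combination and 4.82, 4.99 and 4.19 TPM with chemotherapy (2.24 ± 0.09, adjusted p = 7.01e-13). Pdk1, the kinase that shuts off pyruvate dehydrogenase, was at 139, 122 and 109 TPM with the combination, against 65.3, 63.1 and 61.8 TPM with chemotherapy (0.94 ± 0.08). Ldha rose by 0.34 ± 0.05. The glucose transporter gene Slc2a1 fell by 0.44 ± 0.14, a call that was lost without the first library of either group (adjusted p = 0.0512 and 0.063). Vegfa did not pass the test (-0.16 ± 0.07, adjusted p = 0.0643).

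Lysosomal genes rose in 18 of 33 members and fell in 4 (median 0.20). Lamp1, the membrane protein of the organelle, was at 495, 501 and 496 TPM with the combination and 338, 370 and 340 TPM with chemotherapy (0.51 ± 0.04, adjusted p = 1.29e-09), and Ctsl, which encodes cathepsin L, fell by 0.57 ± 0.06. Autophagy genes had shares near those of all genes, with 9 of 32 higher and 7 lower (median 0.05), 7 higher and 9 lower after rescaling. Gabarap, an ATG8 protein of the autophagosome membrane, was at 534, 531 and 496 TPM with the combination and 259, 289 and 269 TPM with chemotherapy (0.93 ± 0.05), while Wipi2, which recruits the lipidation machinery, fell by 0.70 ± 0.05. Of 26 NRF2 targets, 8 rose and 11 fell (median -0.22). Nqo1, a quinone reductase often read as an NRF2 marker, was at 112, 116 and 105 TPM with the combination, against 77.5, 78.4 and 79.3 TPM with chemotherapy (0.50 ± 0.07, adjusted p = 4.25e-06). Txnrd1, the thioredoxin reductase gene, fell by 0.52 ± 0.06. Heat shock genes were lower in 10 of 19 members and higher in 3 (median -0.28). The lower ones included the mitochondrial chaperonin genes Hspd1 (-0.52 ± 0.07) and Hspe1 (-0.57 ± 0.06), and Cryab, a small heat shock protein, was higher, at 28.4, 31.7 and 23.5 TPM with the combination and 5.02, 4.33 and 4.19 TPM with chemotherapy.

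Receptor tyrosine kinase genes were divided, with 7 of 19 higher and 7 lower (median -0.02). Met, the receptor of hepatocyte growth factor, was at 54.3, 61.8 and 52.6 TPM with the combination and 31.9, 32.3 and 31.4 TPM with chemotherapy (0.80 ± 0.11, adjusted p = 4.32e-06). Egfr rose by 0.59 ± 0.12 and Pdgfrb by 1.18 ± 0.08, and Tyro3 (-0.88 ± 0.09) and Axl (-0.31 ± 0.08), of the same receptor family as each other, fell. Pdgfrb averaged 0.257 TPM or less in every group without trametinib, so its rise was tied to the filter. Secreted cytokines and growth factors moved both ways, with 13 of 24 higher and 10 lower (median 0.31). Csf1, which encodes the macrophage growth factor M-CSF, was at 133, 144 and 140 TPM with the combination and 66.5, 66.0 and 67.1 TPM with chemotherapy (1.05 ± 0.08, adjusted p = 1.12e-09). Tgfb2 (1.69 ± 0.10) and Vegfd (1.64 ± 0.09) rose as well. The IL-6 family members Il11 and Lif fell, Il11 to 0.638, 1.02 and 0.650 TPM with the combination, against 7.12, 4.67 and 6.07 TPM with chemotherapy, and Lif by 0.93 ± 0.12. Of the 13 mRNAs encoded by mitochondrial DNA, mt-Co3 rose and mt-Nd1 fell, the first by 0.25 ± 0.06 and the second with a difference of -0.30 ± 0.07. The call of mt-Co3 was lost with no filter on low values (adjusted p = 0.0692) and in a fit of the 6 libraries alone (adjusted p = 0.109). Without the second T24_CP library 3 of these mRNAs were higher and 3 lower.

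**Figure D3:**
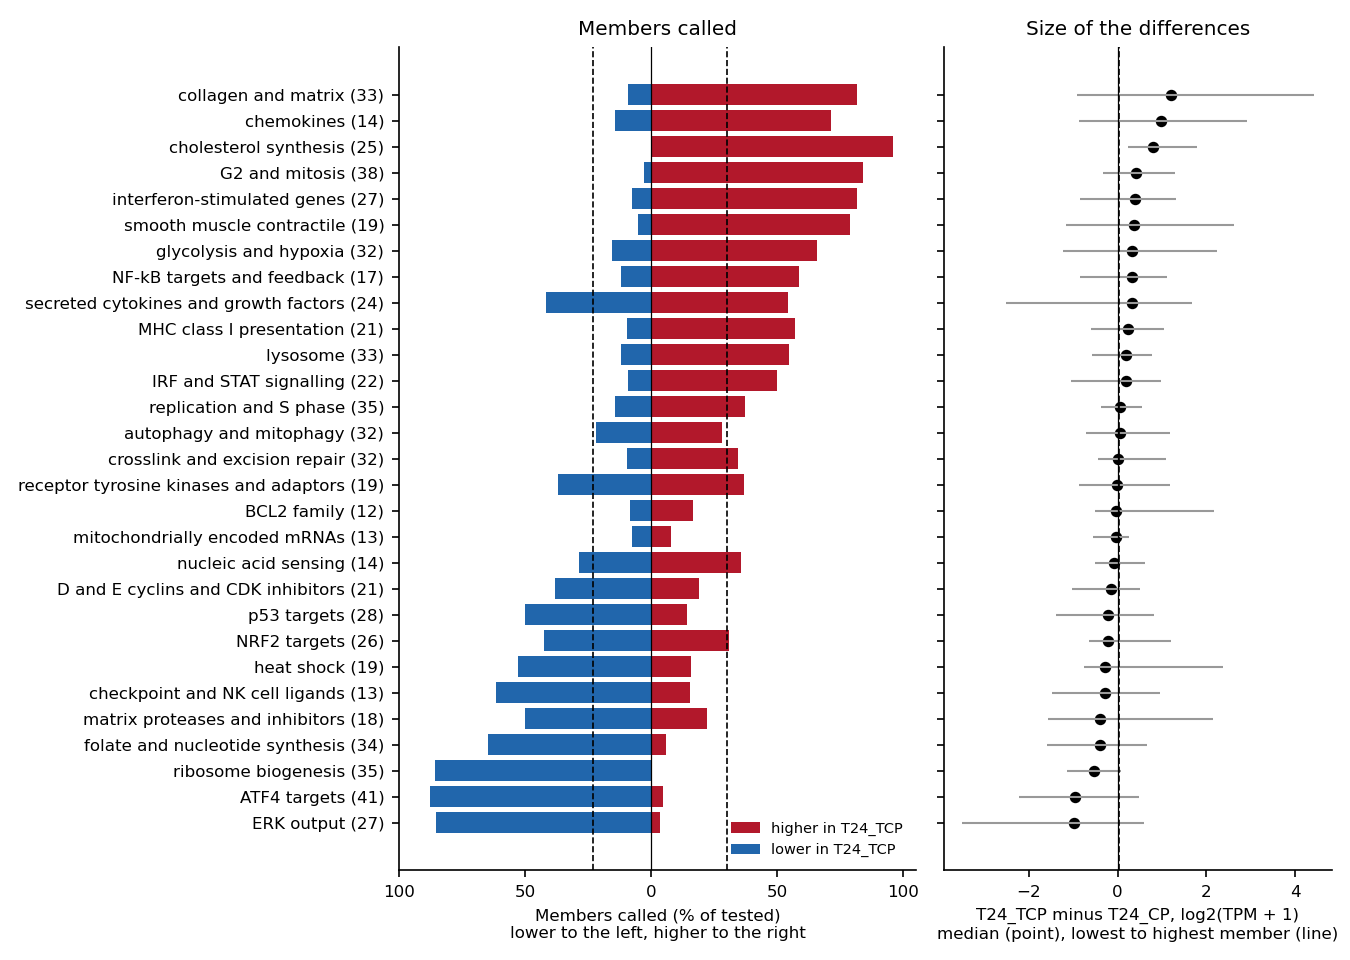
Left, the share of tested members of each list that was higher (to the right) or lower (to the left) in T24_TCP than in T24_CP, in percent, with the number tested in brackets and dashed lines at the shares of all genes, 30.3% and 23.2%. Right, the median difference of each list in log2(TPM + 1) as a point and its lowest to highest member as a line. Collagen and matrix genes stand at the top with a median of 1.21 and ERK output genes at the bottom with -0.99.

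Whether trametinib made the same difference without chemotherapy was tested as the contrast of the 2 differences at 24 h, with chemotherapy minus without. The comparison of T24_T with T24_NT shares no library with that of T24_TCP with T24_CP. It called 4074 genes (32.4%) higher and 3309 genes (26.3%) lower with trametinib alone, with a median of 0.04 over all genes. Of the 3810 genes higher with the combination, 2570 were also higher with trametinib alone, 241 were lower and 999 were not called. Of the 2921 lower genes, 1921 were also lower with trametinib alone, 188 were higher and 812 were not called. Across the 12581 genes the 2 differences correlated at Pearson's r = 0.616 and Spearman's rho = 0.625, a description over genes, which are not replicates. The contrast called 2040 genes (16.2%) more positive with chemotherapy and 1957 genes (15.6%) more negative. Of the more positive genes, 526 were higher with chemotherapy and not called without it, 588 were not called with chemotherapy and lower without it, 441 were lower in both, 215 were higher in both, and 241 were higher with chemotherapy but lower without it. Of the more negative genes, 685 were not called with chemotherapy and higher without it, 528 were higher in both, 394 were lower with chemotherapy and not called without it, 188 were lower with chemotherapy but higher without it, and 121 were lower in both.

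Cxcl10 was among the genes higher with chemotherapy and not called without it. It averaged 11.2 ± 1.65 TPM in T24_TCP and 2.85 ± 0.367 TPM in T24_CP, and 0.612 ± 0.123 TPM in T24_T and 0.414 ± 0.0367 TPM in T24_NT (SD, n = 3 each). The contrast was 1.47 ± 0.16 (adjusted p = 1.76e-06). Of the 14 chemokine genes, 7 had a more positive difference with chemotherapy and 1 a more negative one. Among the 7 were Cxcl2, Cxcl3 and Cxcl15, which entered the test only through groups given trametinib, so this count is tied to the filter. Interferon-stimulated genes did otherwise. With trametinib alone 24 of the 27 rose and 2 fell, with a median of 0.86 over the list, and in the contrast 12 were more negative with chemotherapy and none more positive.

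The mitotic genes were the list with the largest share of members more positive with chemotherapy after the NRF2 targets, 29 of 38, with 2 more negative and a median contrast of 0.48. With trametinib alone 8 were higher and 10 lower, against 32.4% and 26.3% of all genes. Ccnb2 averaged 125 TPM in T24_TCP and 68.3 TPM in T24_CP, and 94.0 TPM in T24_T and 97.3 TPM in T24_NT. The highest of the 4 means was that of T24_TCP and the lowest that of T24_CP. Of the 26 NRF2 targets, 21 were more positive with chemotherapy and none more negative (median 0.63). Trametinib alone lowered 22 of the 26. Nqo1 averaged 111 TPM in T24_TCP and 78.4 TPM in T24_CP, and 58.5 TPM in T24_T and 179 TPM in T24_NT, which is a rise with chemotherapy and a fall without it (contrast 2.10 ± 0.10). Ugt1a6a, a glucuronosyltransferase, and Atf3 did the same, with contrasts of 2.09 ± 0.18 and 2.09 ± 0.13. Atf3 averaged 61.4 TPM in T24_TCP and 43.5 TPM in T24_CP, and 5.41 TPM in T24_T and 18.4 TPM in T24_NT. Ugt1a genes share their last exons, so the division of reads among them is uncertain.

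Areg and Ptgs2 fell less with chemotherapy than without it. Areg averaged 21.8 TPM in T24_TCP and 108 TPM in T24_CP, and 2.68 TPM in T24_T and 96.2 TPM in T24_NT (contrast 2.47 ± 0.15, adjusted p = 1.2e-09). Ptgs2, which encodes the prostaglandin synthase COX-2, averaged 92.6 TPM in T24_TCP and 181 TPM in T24_CP, and 17.6 TPM in T24_T and 171 TPM in T24_NT (contrast 2.25 ± 0.16). Of the 27 ERK output genes, 8 were more positive and 4 more negative with chemotherapy. H2afx, which encodes the histone variant H2A.X, averaged 13.6 TPM in T24_TCP and 2.61 TPM in T24_CP, while T24_T and T24_NT were at 31.1 and 31.8 TPM (contrast 2.05 ± 0.19). Histone genes share sequence, which makes the assignment of their reads uncertain.

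Cholesterol genes rose by more without chemotherapy. All 25 rose with trametinib alone, with a median of 1.78, and in the contrast 20 were more negative with chemotherapy and none more positive (median -0.95). Hmgcs1 averaged 74.6 TPM in T24_TCP and 30.4 TPM in T24_CP, and 145 TPM in T24_T and 22 TPM in T24_NT. Smooth muscle genes did likewise, with 11 of 19 more negative and none more positive (median -0.59). Of the 13 mitochondrial mRNAs, 7 were more negative in the contrast (median -0.49). With trametinib alone 10 of these mRNAs rose and 1 fell, whereas with the combination against chemotherapy 1 rose and 1 fell. The replication list had 15 of 35 members more negative and 2 more positive (median -0.18). Txnip, a brake on glucose uptake, had one of the most negative contrasts, at 883 TPM in T24_TCP and 621 TPM in T24_CP, against 281 TPM in T24_T and 24.7 TPM in T24_NT (-2.94 ± 0.19, adjusted p = 2.42e-09). Ccne2 fell with chemotherapy and rose without it, at 75.6 TPM in T24_TCP and 156 TPM in T24_CP, and 34.7 TPM in T24_T and 15.8 TPM in T24_NT (-2.12 ± 0.16).

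**Figure D4:**
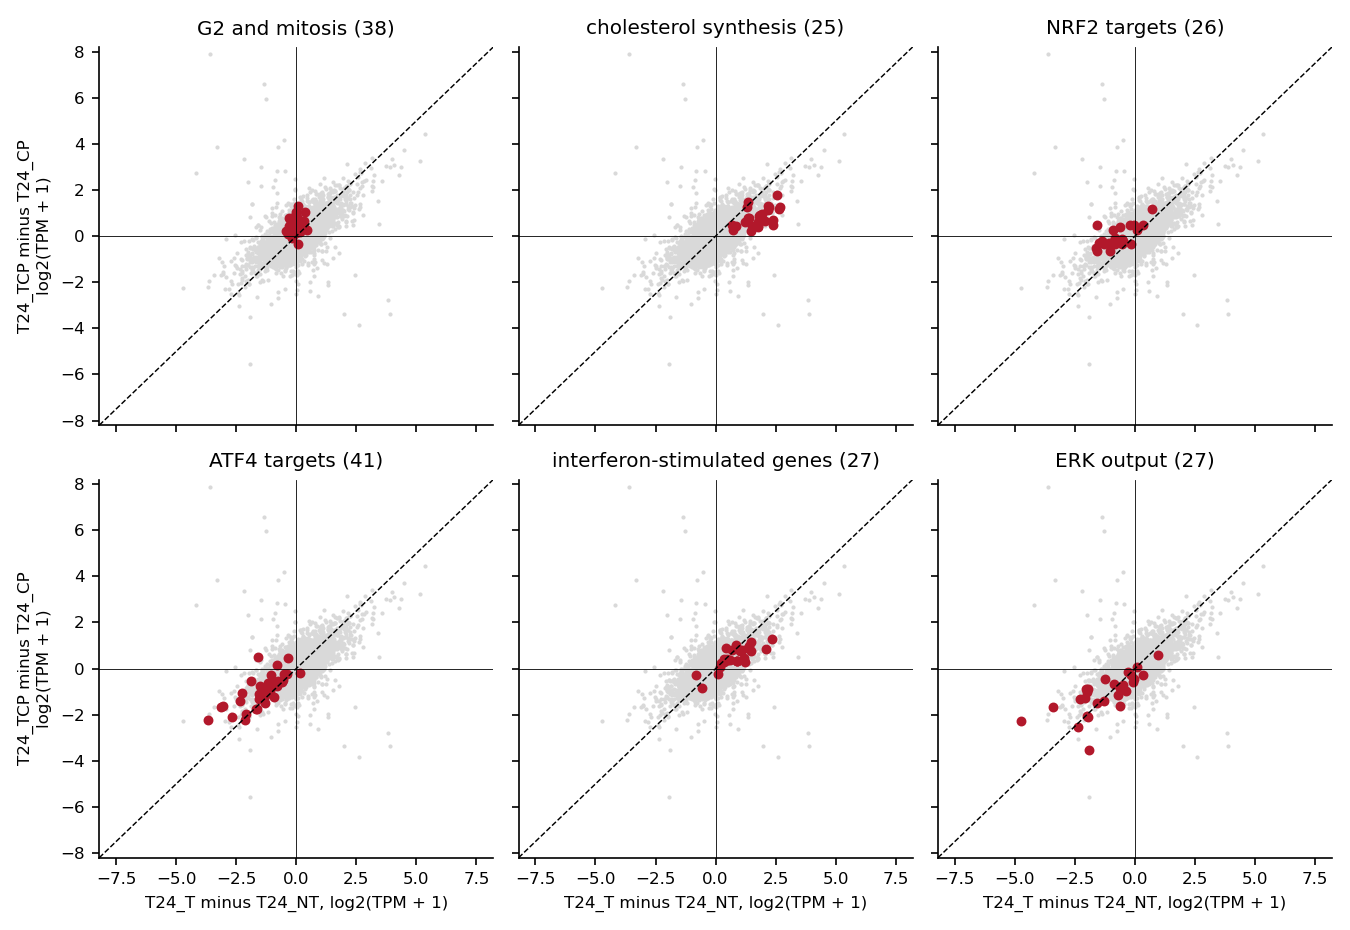
Each panel plots T24_TCP minus T24_CP (vertical) against T24_T minus T24_NT (horizontal), in log2(TPM + 1). The 12574 gene symbols tested are in grey, the members of 1 list in red, and a dashed line marks where the 2 differences are equal. Mitotic genes lie around 0 on the horizontal axis and above 0 on the vertical one, with medians of -0.01 and 0.42, and cholesterol genes lie below the line, with medians of 1.78 and 0.80. NRF2 targets lie to the left and above the line, with medians of -0.81 and -0.22.

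Whether the difference was already there at 6 h was tested as the contrast of the difference at 24 h minus that at 6 h, where T6_TCP and T6_CP are again libraries of their own. At 6 h 4989 genes (39.7%) were higher and 2057 genes (16.4%) lower in T6_TCP than in T6_CP, with a median of 0.13 over all genes. Of the 3810 genes higher at 24 h, 2778 were also higher at 6 h, 81 were lower and 951 were not called. Of the 2921 genes lower at 24 h, 1375 were also lower at 6 h, 410 were higher and 1136 were not called. The contrast called 1354 genes (10.8%) more positive at 24 h and 2883 genes (22.9%) more negative, 32% of the calls on the positive side. After rescaling by the median ratio it called 2155 genes more positive and 2203 more negative, an even division, so the unequal counts depend on the scaling. The median contrast over all genes was -0.08 before and 0.01 after rescaling.

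Cxcl10 did not pass the test at 6 h, where it averaged 0.473 ± 0.147 TPM in T6_TCP and 0.383 ± 0.202 TPM in T6_CP (difference 0.10). The contrast with 24 h was 1.56 ± 0.16 (adjusted p = 8.21e-07). Collagen and matrix genes gained with time, with 21 of 33 more positive at 24 h and 1 more negative (median 0.57). Ogn was at 54.2 TPM in T24_TCP and 1.54 TPM in T24_CP, and at 8.27 TPM in T6_TCP and 0.940 TPM in T6_CP, so that it was higher at both times (contrast 2.18 ± 0.15). Thbs1 was at 36.6 TPM in T24_TCP and 2.58 TPM in T24_CP, and at 14.2 TPM in T6_TCP and 5.83 TPM in T6_CP (contrast 2.23 ± 0.15). Fbn1, the fibrillin of elastic fibres, had a contrast of 1.85 ± 0.13. Cholesterol genes gained as well, with 12 of 25 more positive and none more negative (median 0.32). Ribosome biogenesis genes were lower at both times and less so at 24 h, with 15 of 35 more positive and none more negative (median 0.24), 33 of them lower at 6 h.

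The p53 targets were more negative at 24 h. At 6 h 12 of the 28 were higher and 4 lower with trametinib, shares near the 39.7% and 16.4% of all genes, with a median of 0.14 against 0.13. At 24 h 4 were higher and 14 lower, and in the contrast 16 were more negative and 1 more positive (median -0.43). After rescaling 15 were more negative and 2 more positive. Fas was not in the p53 list but among the surface ligands, and is named as an extreme of this contrast. It was at 3.57 TPM in T24_TCP and 7.37 TPM in T24_CP, and at 2.55 TPM in T6_TCP and 0.636 TPM in T6_CP. That is a fall at 24 h after a rise at 6 h (contrast -2.00 ± 0.18, adjusted p = 1.71e-07). Autophagy genes had 19 of 32 members more negative at 24 h and 3 more positive (median -0.35), 14 and 3 after rescaling. At 6 h 23 of them were higher and 3 lower, against 39.7% and 16.4% of all genes. ATF4 targets fell at both times and further at 24 h, with 21 of 41 more negative and 4 more positive (median -0.31), 17 and 7 after rescaling. The mitotic list was higher at both times, with 33 of 38 higher at 6 h. In the contrast 6 of its members were more positive and 4 more negative (median -0.03), 11 and 3 after rescaling (median 0.07). Atg9b, Slc4a11 and Selp fell at 24 h and had the highest mean of the 4 groups in T24_CP, with contrasts of -2.58 ± 0.12, -2.17 ± 0.14 and -2.17 ± 0.23. Atg9b was at 3.77 TPM in T24_TCP and 29.6 TPM in T24_CP, and at 1.68 TPM in T6_TCP and 1.88 TPM in T6_CP.

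**Figure D5:**
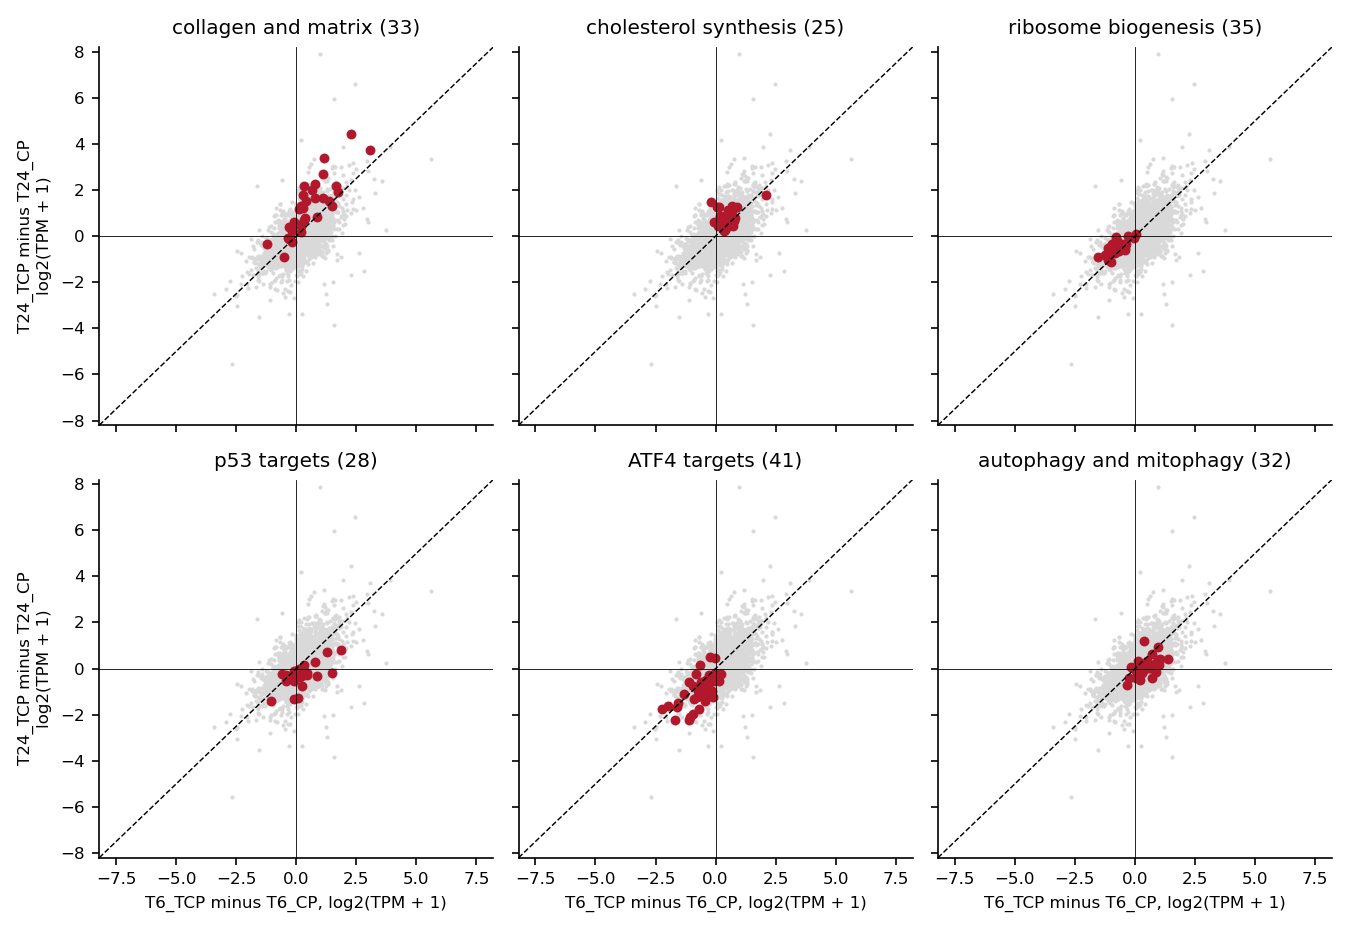
Each panel plots T24_TCP minus T24_CP (vertical) against T6_TCP minus T6_CP (horizontal), in log2(TPM + 1). The 12574 gene symbols tested are in grey, the members of 1 list in red, and a dashed line marks where the 2 differences are equal. Collagen and matrix genes lie above the line, with medians of 0.30 at 6 h and 1.21 at 24 h. The p53 targets lie below it, with medians of 0.14 at 6 h and -0.22 at 24 h, where all genes have 0.13 and 0.03.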

How the data were processed

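RNA was sequenced as stranded poly(A) libraries from LLC1 cells, per the labels' protocols, 3 libraries in each of 8 groups. The authors deposited TPM for 82934 transcripts, made with bcl2fastq 2.17.1.14 and kallisto 0.45 on GRCm38 according to the submitters' processing notes, which leave the version of the transcript set unstated. TPM keeps no depth, so no count model was run.

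Transcript values were summed per gene with GENCODE M21 (79662 transcripts, 28328 genes). The unmatched transcripts held 4.45% to 5.98% of a library's TPM. The 12581 genes that reached 1 TPM in 3 or more of the 24 libraries entered a fit on log2(TPM + 1) by limma 3.58.1 (R 4.3.3), which understates changes of low genes, with 1 mean per group over all 24 libraries, a variance trend and Benjamini-Hochberg adjustment at 0.05. Rescaling by the median ratio moved the median difference of all genes from 0.03 to -0.01. The fit was tested on simulated data. A planned test of transcript usage is not reported, because it did not keep its error rate on simulated data.

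The members, gene lists and markers were chosen with earlier results of these data known. The lists held 724 tested and 87 untested genes, and their counts have no set test. Named genes are Cxcl10, the 12 largest rises and 12 largest falls among called genes whose higher mean was 5 TPM or more and whose groups did not overlap (predicted genes and pseudogenes skipped), up to 6 called members of each list with the smallest p and its first 3 members, and the 8 most positive and 8 most negative called genes of each contrast of differences. Not all are named, and some genes are not reported here. Members of a list outside the rule (Spry1, Ccnd1, Cxcl16, Cx3cl1, Ccl2, Tap1, Nlrc5, Col18a1, Lamb1, Fbln1, Mad2l1, Cebpg) are given because their list's count singled them out, and were chosen after their values were seen. Promoters are the 250 bases before the RefSeq start nearest to the start of the gene's most abundant transcript. In the 15 matched promoters of the ERK output list, the ETS motif (CCGGAAG) and the AP-1 motif (TGANTCA) were each found in 0. They were in 15.3% and 4.28% of all promoters.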

Additional observations from a re-analysis of the deposited data

Results flagged for a closer look

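The limma contrast of the 2 differences made by trametinib at 24 h, with chemotherapy minus without, called 3997 genes in log2(TPM + 1). Of those, 17 are given here, Cxcl10 and genes from both ends of the contrast. The latter had a mean of 5 TPM or more in their highest group, with predicted genes and pseudogenes skipped. Cxcl10 had a contrast of 1.47. The 8 most positive were Areg (2.47), Ptgs2 (2.25), Nqo1 (2.10), Ugt1a6a (2.09), Atf3 (2.09), Creg1 (2.07), H2afx (2.05) and Il1rl1 (2.03). Creg1, which encodes a lysosomal glycoprotein, averaged 29.3 TPM in T24_TCP and 22.3 TPM in T24_CP, and 15.2 TPM in T24_T and 51.2 TPM in T24_NT. Il1rl1, the receptor of interleukin-33, averaged 99.5 TPM in T24_TCP and 120 TPM in T24_CP, and 59.0 TPM in T24_T and 293 TPM in T24_NT.

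The 8 most negative were Calb1 (-5.34), Txnip (-2.94), Pih1d1 (-2.47), Phkg1 (-2.31), Ccne2 (-2.12), Atg9b (-1.93), Cbr2 (-1.88) and Hsd17b7 (-1.88). Phkg1, a catalytic subunit of phosphorylase kinase, averaged 7.01 TPM in T24_TCP and 16.5 TPM in T24_CP, and 13.1 TPM in T24_T and 5.33 TPM in T24_NT. Hsd17b7, of cholesterol synthesis, rose in both comparisons and by more without chemotherapy.

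The contrast of the difference between the combination and chemotherapy at 24 h minus that at 6 h called 4237 genes. Of those, 16 are given here, Cxcl10 and genes from both ends, chosen by the same rule. Cxcl10 had a contrast of 1.56. Among the most positive were Cp (2.58), Elmo1 (2.50), Ighm (2.47), Thbs1 (2.23), Ogn (2.18), H2afx (1.94) and Fbn1 (1.85). Cp averaged 123 TPM in T24_TCP and 11.3 TPM in T24_CP, and 17.1 TPM in T6_TCP and 9.86 TPM in T6_CP.

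The 8 most negative were Pagr1a (-3.54), Calb1 (-3.05), Fam171a2 (-2.73), Atg9b (-2.58), Slc4a11 (-2.17), Selp (-2.17), Pih1d1 (-2.04) and Fas (-2.00). Fam171a2 averaged 1.92 TPM in T24_TCP and 5.02 TPM in T24_CP, and 9.34 TPM in T6_TCP and 2.22 TPM in T6_CP. Of these 8, 3 passed the test narrowly. Pagr1a (adjusted p = 0.0475) lost its call in 13 settings besides the Bonferroni threshold, among them ones that leave out no library, with -2.64 to -5.71 in those settings and the smallest size without the third T6_CP library (adjusted p = 0.139). Calb1 (adjusted p = 0.0215) lost its call without the third T6_CP (-2.59), the first T24_CP (-2.67), the third T24_CP (-2.57) or the first T24_TCP library (-2.66). Pih1d1 (adjusted p = 0.0272) lost its call without the second T6_CP (-1.93), the first T6_TCP (-1.96), the first T24_CP (-1.84), the first T24_TCP (-1.79) or the second T24_TCP library (-2.00), with adjusted p of 0.0509 to 0.0701.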

How the results depend on the processing

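With a Bonferroni threshold of 0.1, 1477 genes were higher and 1049 lower with the combination, 821 differed between the presence and absence of chemotherapy, and 849 between 24 h and 6 h, each under the main count by more than 1.5 times. Under the other settings these counts stayed within 1.5 times. They were another pseudocount, another filter or none, rescaling, no variance trend, fewer groups in the fit and each library left out. Leaving out single libraries gave 3306 to 3595 higher and 2558 to 2901 lower genes.

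Of 232 named genes called between the combination and chemotherapy, 182 kept call and direction under every alternative run, 221 under every one but Bonferroni, and 0 changed sign. Irf7 was 0.58, and 0.38 without the third T24_CP library (adjusted p = 0.133). Map1lc3b was 0.19, and 0.10 without the second T24_CP library (adjusted p = 0.143). Plk1 lost its call without the second T24_CP library (adjusted p = 0.0678) or the third T24_TCP library (adjusted p = 0.0586).

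Same-numbered libraries did not deviate together (correlations of -0.137, 0.138 and -0.1), so the numbers were not taken as pairs. With a replicate block 3748 genes were higher and 2880 lower, and the contrasts called 3835 and 4049 genes. The planned test of transcript usage was not run on these data. Since TPM keeps no depth, the counting error of low genes is unknown.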
